A study of Mus musculus with 12 samples.

Results

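Hox genes were examined in neural stem cells cultured from the hippocampus of mice. The 39 members are the genes of the deposited table whose name is Hoxa, Hoxb, Hoxc or Hoxd followed only by a number, so antisense genes are not among them. They are 11 Hoxa, 10 Hoxb, 9 Hoxc and 9 Hoxd genes out of 34745 genes in all, and 38 of them are described. Polyadenylated RNA was measured by paired-end sequencing in 12 libraries of wild type C57BL/6 cells. Late cultures at passage 10 had been given small extracellular vesicles of embryonic stem cells, named ESC-sEVs in the labels (P10 EV, n = 4), or an equal volume of PBS (P10 PBS, n = 4), both from passage 2 on. Early cultures were taken at passage 2 (P2, n = 4). All 3 groups grew in DMEM/F12 medium with 2% B27, 20 ng/ml EGF, 20 ng/ml bFGF and 5 μg/ml heparin, which select for dividing cells outside their tissue. No passage 10 culture without PBS or vesicles is among the samples, so passage number and the added liquid cannot be told apart in a comparison with P2. Nothing in the labels says whether the replicates of a group came from separate animals, and p-values measure only the spread between these libraries.

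Hox genes encode homeodomain transcription factors that tell cells of the embryo where they lie between head and tail. Mammals carry them in 4 clusters, and the order along a cluster matches the order in which genes are used: low paralogue numbers in the hindbrain and neck, high numbers in the trunk and tail. The forebrain, from which the hippocampus forms, lies in front of the territory in which Hox genes are normally used. Polycomb complexes keep the unused genes of a cluster silent, while retinoic acid, Cdx factors and the Kmt2a complex can switch them on.

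The libraries held 10736538 to 16807647 counts and 19698 to 20562 genes with a read. The neural stem cell markers, 7 of 7, had reads in every group. Their summed level was 3415 to 3913 counts-per-million (CPM) in P10 EV, 3220 to 4137 in P10 PBS and 3558 to 4209 in P2. Single markers differed widely. Vim averaged 1335 CPM in P10 EV, 1533 in P10 PBS and 1827 in P2, and Prom1 averaged 4.8, 2.9 and 6.6 CPM. In 4 libraries, which are P10 EV replicate 1, P10 PBS replicate 1 and P2 replicates 1 and 2, the liver transcript Alb reached 16.5 to 21.5 CPM, while no other library exceeded 0.145 CPM. Hox results are therefore also given without these 4, called the libraries with liver transcripts, which leaves 3 P10 EV, 3 P10 PBS and 2 P2 libraries.

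Hox transcripts were present at very low levels, almost all from the Hoxa cluster and almost all at passage 10. Of the 38 genes, 13 had at least 1 read in the 12 libraries and 25 had none. Their 305 counts divided into 298 from Hoxa (97.7%), 3 from Hoxb (0.984%), 3 from Hoxc (0.984%) and 1 from Hoxd (0.328%). Within Hoxa, Hoxa2 to Hoxa5 gave 282 counts, which is 92.5% of the total, and Hoxa6 to Hoxa13 gave 16 (5.25%). Such counts are small, and their intervals and floors cover counting error only.

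**Figure D1:**
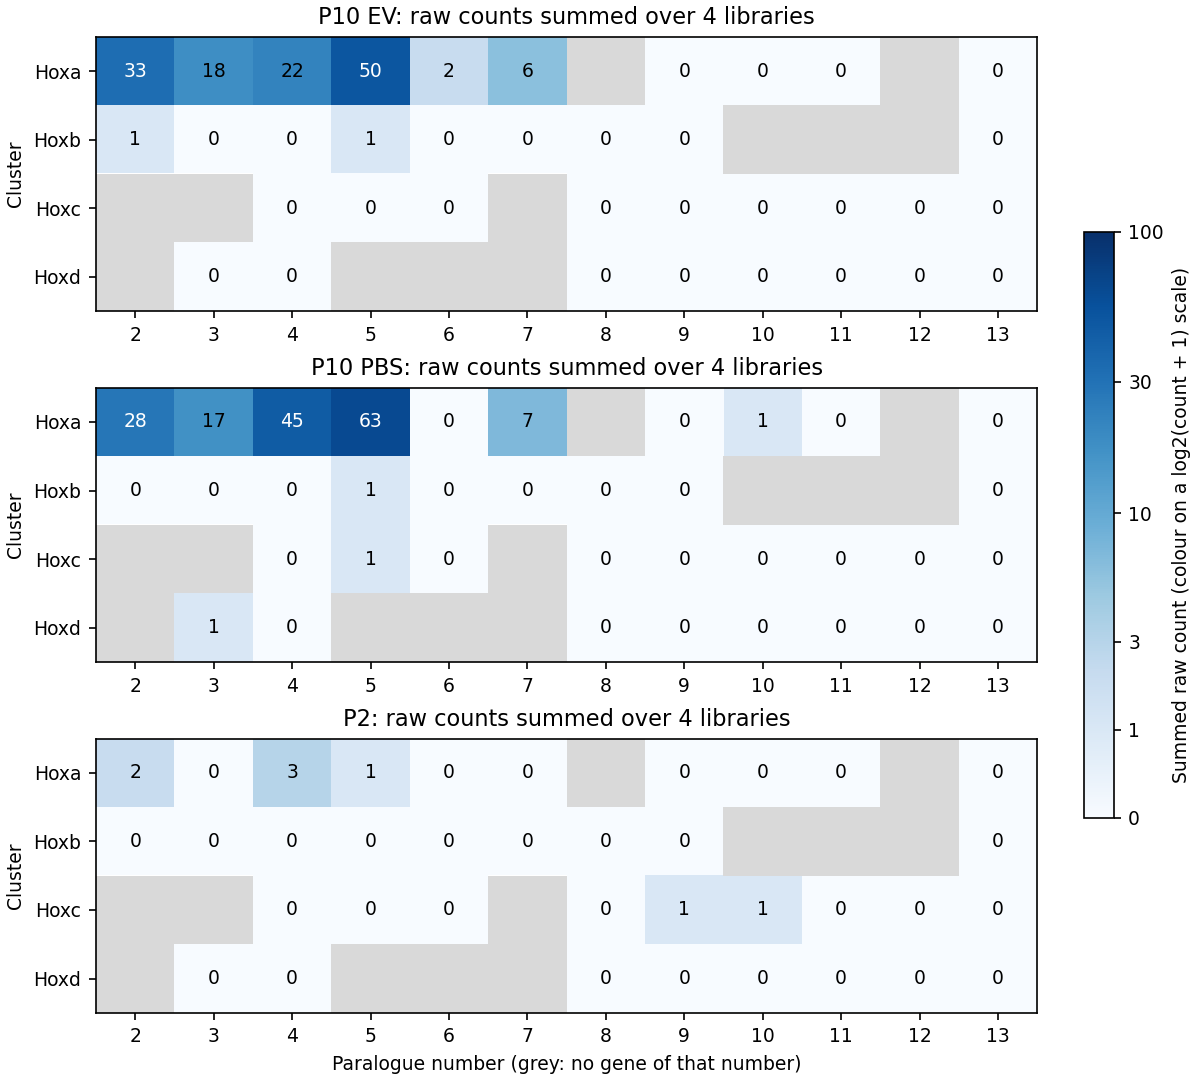
Counts of mouse Hox genes of paralogue numbers 2 to 13, arranged by cluster (rows) and number (columns), summed over the 4 libraries of P10 EV, P10 PBS and P2; the colour scale is logarithmic and grey marks numbers with no gene. The darkest cells lie at Hoxa2 to Hoxa5 in both passage 10 groups, with 123 counts over these 4 genes in P10 EV, 153 in P10 PBS and 6 in P2.

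In CPM, the summed level of the 38 genes was 2.79, 2.59, 1.88 and 2.02 in P10 EV replicates 1 to 4. It was 4.67, 2.47, 3.36 and 2.39 in P10 PBS and 0.216, 0.219, 0.166 and 0 in P2. Every passage 10 library therefore lay above every P2 library, while P10 EV and P10 PBS overlapped and P10 PBS replicate 1 stood highest. The means were 2.32 ± 0.438 CPM in P10 EV, 3.22 ± 1.06 in P10 PBS and 0.150 ± 0.103 in P2 (SD, n = 4 each). Without Hoxa5 they were 1.44 in P10 EV, 1.98 in P10 PBS and 0.132 in P2. Bulk RNA does not show whether many cells carried a few Hox molecules or few cells carried many: fewer cells of a type and less RNA per cell cannot be told apart.

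Libraries of one replicate number carry the same culture code in the labels. The code of replicate 1 had 2.79 CPM of Hox transcripts in P10 EV, 4.67 in P10 PBS and 0.216 in P2. The code of replicate 3 had 1.88 CPM in P10 EV, 3.36 in P10 PBS and 0.166 in P2. The same order, both passage 10 libraries above P2, held for the other two codes. Alb exceeded 1 CPM in replicate 1 of all 3 groups, in replicate 2 of P2 only, and in no library of replicates 3 and 4.

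Hoxa5 takes part in the shaping of the lung and of the neck vertebrae and was the gene of the 38 whose difference passed the test. It lies on chromosome 6, bases 52201754 to 52204587 of build GRCm38, on the minus strand (ENSMUSG00000038253). Its counts were 16, 12, 9 and 13 in the P10 EV libraries, 30, 11, 15 and 7 in the P10 PBS libraries and 0, 1, 0 and 0 in the P2 libraries. Neither passage 10 group overlapped with P2. The mean was 0.877 ± 0.121 CPM in P10 EV, 1.24 ± 0.655 in P10 PBS and 0.0183 ± 0.0366 in P2 (SD, n = 4 each). By edgeR's quasi-likelihood test with Benjamini-Hochberg adjustment over 24209 genes, Hoxa5 was higher in P10 EV than in P2 by 4.95 ± 0.774 on the log2 scale (SE; adjusted p = 0.0152). It was higher in P10 PBS than in P2 by 5.46 ± 0.757 (adjusted p = 0.00494). With only 1 P2 count, the size of these folds is poorly fixed. The pooled ratio to P2 was 45.6, with a 95% counting interval of 7.81 to 1836, in P10 EV and 65.4, with an interval of 11.3 to 2623, in P10 PBS. Between P10 EV and P2 the adjusted p was 0.0527 without P10 EV replicate 2, 0.0556 without P10 EV replicate 4 and 0.0589 without P2 replicate 4.

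Hoxa2, which sets the identity of the hindbrain and of the second pharyngeal arch, lies at bases 52162417 to 52164831 of chromosome 6 (ENSMUSG00000014704). It had 12, 7, 6 and 8 counts in P10 EV, 6, 5, 9 and 8 in P10 PBS and 0, 2, 0 and 0 in P2. Both passage 10 groups lay above P2 without overlap and had nearly the same mean, 0.573 ± 0.102 CPM in P10 EV and 0.572 ± 0.192 in P10 PBS, against 0.0366 ± 0.0731 in P2 (SD, n = 4 each). The difference from P2 was 3.62 ± 0.780 on the log2 scale in P10 EV (SE; adjusted p = 0.0583) and 3.6 ± 0.786 in P10 PBS (adjusted p = 0.0518), both just above the threshold of 0.05. The pooled ratio, with its 95% counting interval, was 15.0 (3.85 to 129) for P10 EV and 14.5 (3.66 to 126) for P10 PBS.

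The stretch of 250 bases before the start of these 2 genes is printed because their counts were low at P2 and present at passage 10 in every library, and because the windows differ in composition. Both are RefSeq sequences of build GRCm38.p6, read on the minus strand: chr6:52164832-52165081 for Hoxa2 and chr6:52204588-52204837 for Hoxa5. Capitals mark a match to a Pbx-Hox motif on the other strand, TGATNNAT, where N is any base.
Hoxa2: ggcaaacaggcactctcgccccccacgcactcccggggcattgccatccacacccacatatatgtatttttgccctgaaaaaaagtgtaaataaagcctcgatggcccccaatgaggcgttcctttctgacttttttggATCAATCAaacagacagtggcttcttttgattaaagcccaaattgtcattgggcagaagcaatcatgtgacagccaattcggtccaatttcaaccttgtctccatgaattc
Hoxa5: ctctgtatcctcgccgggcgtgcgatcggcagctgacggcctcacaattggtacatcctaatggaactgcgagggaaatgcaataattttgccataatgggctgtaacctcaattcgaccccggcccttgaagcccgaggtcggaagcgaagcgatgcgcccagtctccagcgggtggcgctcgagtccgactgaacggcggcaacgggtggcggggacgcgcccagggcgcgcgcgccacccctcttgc
RefSeq windows were matched for 22 Hox genes, with 24 starts, and among Hoxa2 to Hoxa5 for Hoxa2, Hoxa3 and Hoxa5. The Hoxa5 window holds 28 CG pairs, at percentile 92.8 of 32851 mouse windows of that length, and the Hoxa2 window holds 6, which is also the median of all windows. The median of the Hox windows was 12.5, with a range of 2 to 35. On both strands, TGATNNAT was found in 4 of 24 Hox windows (16.67%) against 7.68% of all windows. The Cdx motif TTTATG was found in 5 (20.83%) against 10.76%, and TATAAA in 4 (16.67%) against 12.37%. A pair of AGGTCA copies 5 bases apart, a form of retinoic acid response element, was found in 0 Hox windows and in 0.01% of all. The Hoxa5 window held none of the 4 motifs.

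Hoxa4, which patterns the neck vertebrae, lies at 52189671 to 52191753 (ENSMUSG00000000942). It had 6, 9, 3 and 4 counts in P10 EV, 21, 7, 7 and 10 in P10 PBS and 3, 0, 0 and 0 in P2. P10 EV reached down towards the P2 library with 3 counts: in CPM its lowest library stood at 0.245 and the highest P2 library at 0.216. The mean was 0.401 ± 0.239 CPM in P10 EV, 0.865 ± 0.386 in P10 PBS and 0.0540 ± 0.108 in P2 (SD, n = 4 each). The log2 difference from P2 was 2.61 ± 0.882 in P10 EV (SE; adjusted p = 0.191) and 3.73 ± 0.839 in P10 PBS (adjusted p = 0.0598). The pooled ratio to the 3 P2 counts was 6.68, with a 95% counting interval of 2.01 to 34.9, in P10 EV and 15.6, with an interval of 5 to 78.3, in P10 PBS.

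Hoxa3, which is needed for the thymus and parathyroid, spans 52169062 to 52213336 (ENSMUSG00000079560). It had 10, 2, 2 and 4 counts in P10 EV, 8, 0, 4 and 5 in P10 PBS and none in the 4 P2 libraries. P10 PBS replicate 2 shared the P2 value of 0. Set against 3 counts over the P2 group, the pooled level was 5.47-fold higher in P10 EV and 5.88-fold higher in P10 PBS. These folds take the 18 P10 EV and 17 P10 PBS counts as exact. Counting error in the passage 10 groups is not covered, so the folds are not lower bounds. The adjusted p was 0.129 for P10 EV and 0.141 for P10 PBS.

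**Figure D2:**
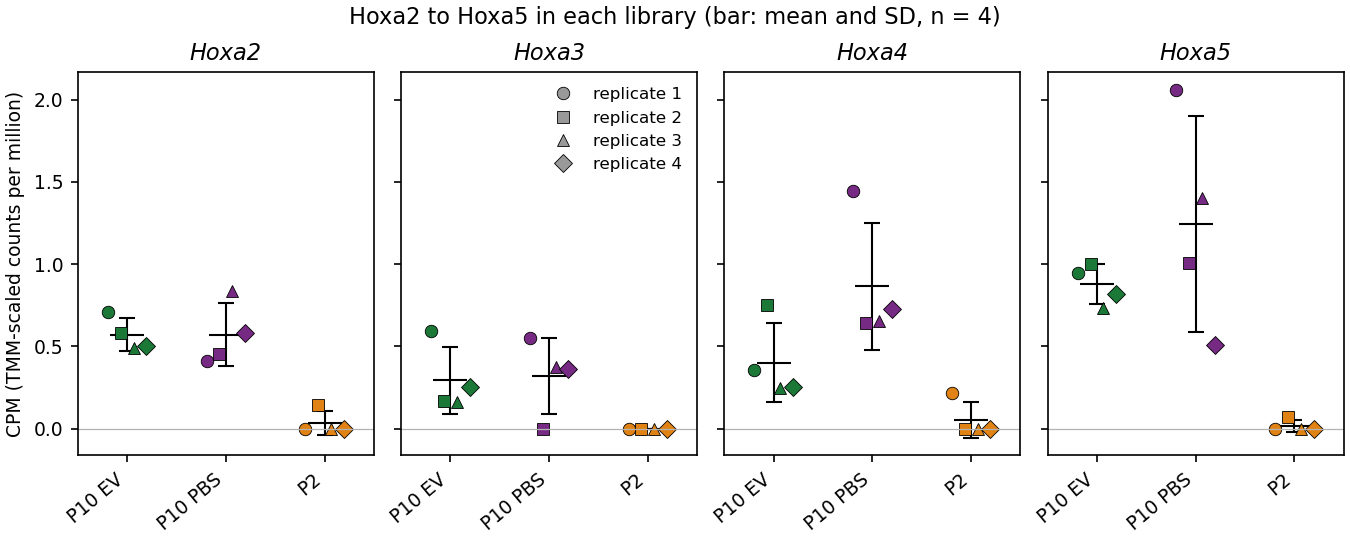
Level of Hoxa2 to Hoxa5 in CPM in each library (points), with the mean and SD of each group (black bars), for P10 EV, P10 PBS and P2. Hoxa5 in P10 PBS replicate 1, at 2.06 CPM, is the highest point; the P2 points lie between 0 and 0.216 CPM.

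P10 PBS replicate 1 was the highest library of its group for Hoxa3, Hoxa4 and Hoxa5 and the lowest for Hoxa2. Its Hoxa4 level of 1.44 CPM compares with 0.640, 0.653 and 0.725 CPM in the other P10 PBS libraries. Its Hoxa2 level of 0.412 CPM compares with 0.457, 0.840 and 0.580 CPM. The summed P10 PBS level without this library was 2.74 CPM.

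Of the 38 genes, the 13 with a read could be tested. Of these 13, 1 passed the test in P10 EV over P2, where 0.421% of the 24209 genes tested were called in either direction, 0.116% higher and 0.306% lower. In P10 PBS over P2, 1 of 13 passed, where 0.673% of all genes were called, 0.252% higher and 0.421% lower. Both are Hoxa5. An unadjusted p under 0.05 was reached by 5 of the 13 genes with a read in either comparison, against 3569 of 24209 genes (14.7%) for P10 EV over P2 and 2669 (11%) for P10 PBS over P2. All 4 libraries of P10 EV exceeded all 4 P2 libraries for 4 of these 13 genes, against 3.43% of the 24209 genes with a read. All 4 libraries of P10 PBS did so for 3 of the 13, against 2.09%. None of the 38 had all 4 passage 10 libraries below P2, which 3.32% of genes had in P10 EV and 2.63% in P10 PBS. For the 38 this could not have come out otherwise, since P2 replicate 4 had 0 counts of them. The absence of falls therefore says nothing about their direction. The median log2 difference over the 13 of these genes with a read was 1.5 in P10 EV over P2 and 1.67 in P10 PBS over P2. Over all genes it was -0.003 and 0. Each Hox median is the value fitted to a gene with 1 passage 10 count and 0 P2 counts. These genes are Hoxb2 and Hoxb5 in P10 EV and Hoxd3 in P10 PBS. The medians therefore do not show a rise of the 13 genes as a whole. The P2 libraries serve both comparisons, so their results are not independent of each other. The 13 genes include 9 with 1 to 13 counts, whose fitted values rest on few reads. The 6 P2 counts of Hoxa2 to Hoxa5 lay in P2 replicates 1 and 2, with 3 in each, so leaving out either library or both also removes P2 reads of these genes. Without the 4 libraries with liver transcripts, the 2 P2 libraries left had none, and edgeR called Hoxa2, Hoxa4 and Hoxa5 in both comparisons with P2. It then also called 3129 of 23511 genes in all in P10 EV over P2 and 2225 in P10 PBS over P2. Without P2 replicate 1 it called the same 3 among 2459 genes in P10 EV over P2 and among 1070 in P10 PBS over P2. Without P2 replicate 2 it called Hoxa2 and Hoxa5 in both, among 161 genes in P10 EV over P2 and 184 in P10 PBS over P2.

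Between P10 EV and P10 PBS, none of the 38 Hox genes was called, and neither was any of the 24209 genes (0%). The 4 libraries of P10 EV lay above those of P10 PBS without overlap for 0 of the 13 Hox genes with a read and 2.81% of the 24209 genes. They lay below them likewise for 0 and 2.81%. An unadjusted p under 0.05 was reached by 0 of the 13 Hox genes with a read and by 1468 of all genes (6.06%). Over all genes, DESeq2 called 62, limma-voom 0 and limma-trend 2. The Hoxa2 difference was 0.02 on the log2 scale, with a 95% interval of -1.17 to 1.20. The difference was, for Hoxa3, -0.12 (-1.92 to 1.69), for Hoxa4 -1.13 (-2.52 to 0.27) and for Hoxa5 -0.50 (-1.5 to 0.49). The adjusted p of the 4 genes lay between 0.827 and 1. Each interval includes 0 and also a 2-fold difference in at least 1 direction. For Hoxa4 the pooled ratio of P10 EV to P10 PBS was 0.429, with a 95% interval of 0.246 to 0.73 that covers counting error only. Leaving out the liver-transcript libraries turned the Hoxa2 difference to -0.24.

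**Figure D3:**
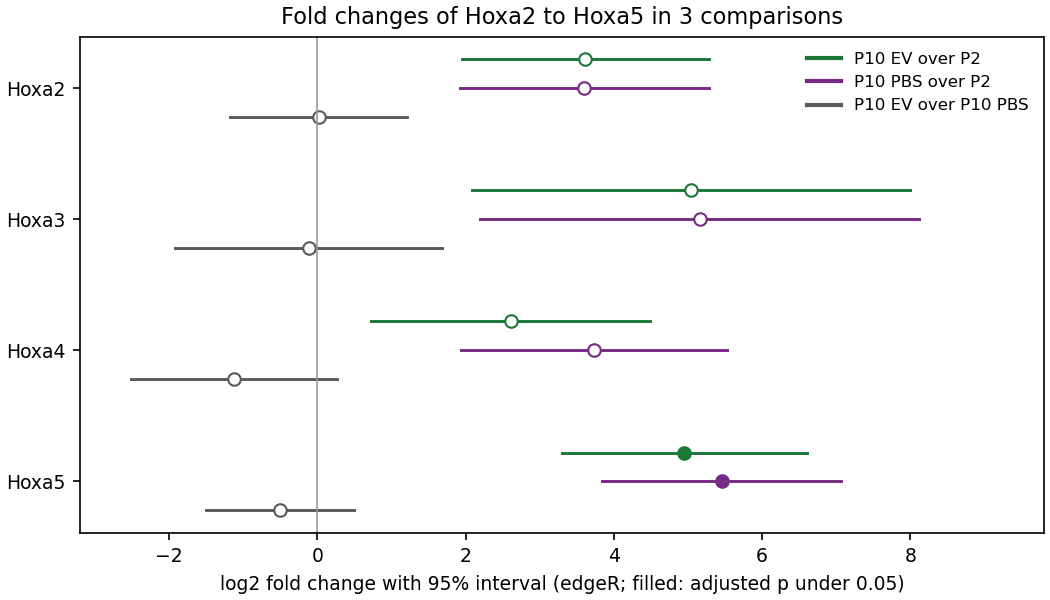
Log2 fold change of Hoxa2 to Hoxa5 with 95% intervals (bars) for P10 EV over P2, P10 PBS over P2 and P10 EV over P10 PBS; filled points passed the test at an adjusted p under 0.05. The filled points are Hoxa5 against P2, at 4.95 for P10 EV and 5.46 for P10 PBS, and the intervals of P10 EV over P10 PBS include 0 for all 4 genes.

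Levels of different genes were compared in FPKM, which divides by gene length. In P10 EV the order was Hoxa5 at 0.478 ± 0.0624, Hoxa2 at 0.330 ± 0.0536, Hoxa4 at 0.258 ± 0.154 and Hoxa3 at 0.0461 ± 0.0312 FPKM (SD, n = 4). The libraries of Hoxa5 lay above those of Hoxa2, and those of Hoxa4 above those of Hoxa3, while Hoxa2 and Hoxa4 overlapped. In P10 PBS the order was Hoxa5 at 0.645 ± 0.318, Hoxa4 at 0.529 ± 0.211, Hoxa2 at 0.319 ± 0.111 and Hoxa3 at 0.0481 ± 0.0338 FPKM. The upper 3 overlapped from neighbour to neighbour, and Hoxa3 lay below them. The place of Hoxa3 depends on the division by length: it has 6014 exon bases in GENCODE M21, against 1775 for Hoxa2. In CPM the 2 genes overlapped, at 0.16 to 0.59 for Hoxa3 and 0.49 to 0.71 for Hoxa2 in P10 EV. The ranges in P10 PBS were 0 to 0.55 and 0.41 to 0.84 CPM. By mean CPM over the 8 passage 10 libraries, Hoxa5 stood above 39% of the genes with a read, Hoxa4 above 34.3%, Hoxa2 above 33.5% and Hoxa3 above 28%.

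The other 9 genes with a read had fewer counts. Values in each library are given for members with at least 20 counts over the 12 libraries; Hoxa3 with 35 was just above this line and Hoxa7 with 13 just below it. Hoxa7, a gene of the thoracic region, had 3, 0, 3 and 0 counts in P10 EV, 3, 3, 0 and 1 in P10 PBS and 0 in every P2 library. By edgeR its adjusted p was 0.332 for P10 EV over P2 and 0.396 for P10 PBS over P2. The remaining 8 had 1 or 2 counts in all. Hoxa6 had 2 in P10 EV, and Hoxa10 had 1 in P10 PBS. Hoxb2 had 1 count in P10 EV, Hoxb5 1 in P10 EV and 1 in P10 PBS, Hoxc5 1 in P10 PBS and Hoxd3 1 in P10 PBS. Hoxc9 and Hoxc10, posterior genes of the Hoxc cluster, had 1 count each, both in P2 replicate 3. The 25 genes without a read include Hoxa9, Hoxa11 and Hoxa13 of the Hoxa cluster. A count of 0 over a group allows a level of up to 0.0527 CPM in P10 EV, 0.0600 in P10 PBS and 0.0578 in P2, taken as 3 counts of its total.

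The reads of the Hoxa cluster also fell on non-coding genes of its anterior end. Hotairm1, a non-coding RNA of the anterior end of the cluster that is known from human myeloid cells, had 21, 11, 13 and 14 counts in P10 EV, 27, 23, 12 and 15 in P10 PBS and 1, 3, 4 and 6 in P2. Its level was 1.03 ± 0.165 CPM in P10 EV, 1.54 ± 0.516 in P10 PBS and 0.278 ± 0.176 in P2 (SD, n = 4 each). Neither passage 10 group overlapped with P2. It rose in P10 PBS over P2 by 2.46 ± 0.469 on the log2 scale (SE; adjusted p = 0.0259), and the difference of P10 EV over P2 was 1.88 ± 0.474 (adjusted p = 0.0984). Of the antisense and opposite-strand genes of all clusters, 10 are in the table and 3 had a read. In P10 PBS over P2, 1 of the 3 was called higher, which is Hotairm1, and none was called in P10 EV over P2 or in P10 EV over P10 PBS. Over all genes, 0.252% were called higher in P10 PBS over P2.

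Hoxaas2, on the strand opposite to Hoxa3, had 3, 13, 2 and 18 counts in P10 EV, 4, 5, 18 and 18 in P10 PBS and 0, 1, 1 and 4 in P2, and the groups overlapped. Hoxaas3 had 1 count in P10 EV, 6 in P10 PBS and 0 in P2. A pair of further genes of the region was picked after their values were seen. Halr1, which lies outside the cluster at its anterior end, had 9, 6, 3 and 5 counts in P10 EV, 5, 4, 6 and 4 in P10 PBS and 4, 0, 0 and 0 in P2. Gm15050, within the Hoxa3 span, had 2, 3, 0 and 1 counts in P10 EV, 8, 4, 4 and 1 in P10 PBS and 1, 0, 0 and 1 in P2. Neither was called. At the posterior end, Hoxa11os, Hottip and Evx1 had no read in any library.

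**Figure D4:**
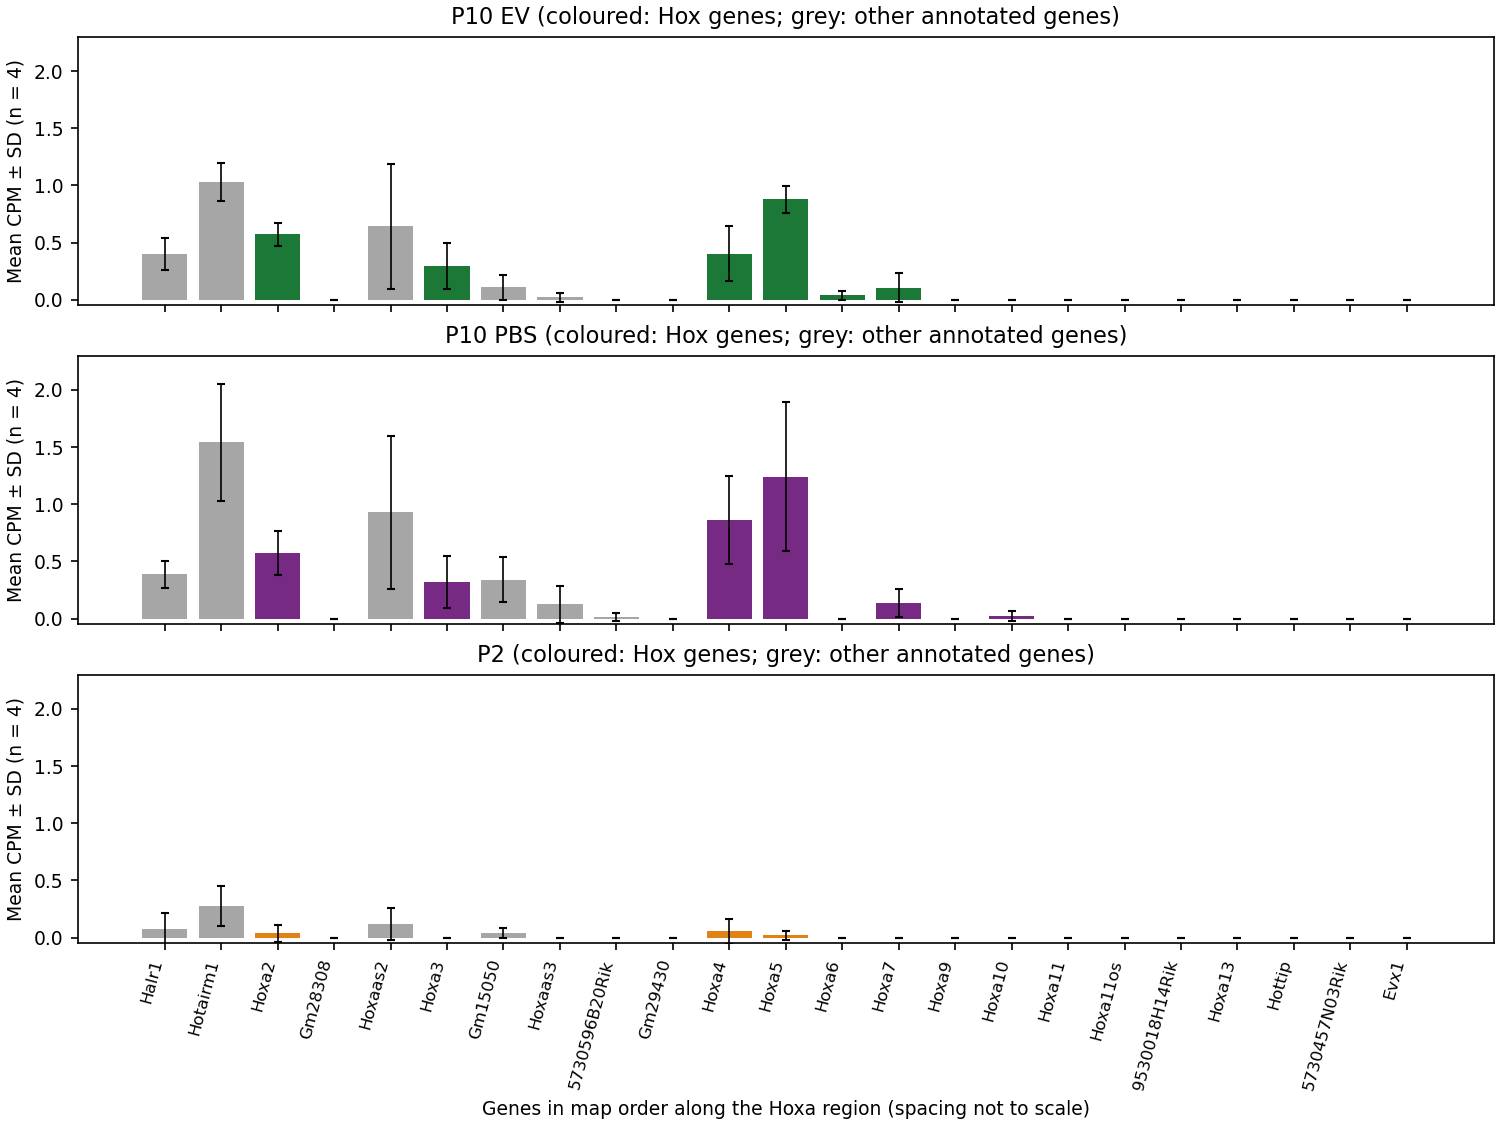
Mean CPM of genes across the Hoxa region, in map order with spacing not to scale, for P10 EV, P10 PBS and P2; error bars are SD (n = 4), and Hox genes are coloured. Reads lie on genes from Halr1 to Hoxa7, and the genes from Hoxa9 onwards are at 0 apart from 1 count of Hoxa10 in P10 PBS.

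Several Hoxa genes share exon bases with a partner, and whether the counting used strand is not given in the sources used here, so such reads may be assigned to either. In GENCODE M21, Hoxa5 shares 0 of its 1877 exon bases with another gene. Hoxa2 shares 267 of 1775 (15%) with Gm28308, and Hoxa4 shares 255 of 1594 (16%) with Gm29430; both partners had 0 counts. Hoxa3 shares 1631 of 6014 (27.1%), among them 503 with Hoxaas2, and Hoxa7 shares 586 of 2876 (20.4%) with Hoxaas3.

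Of the genes that flank the 4 clusters, 9 of 13 in the table had a read, and none was called in any of the 3 comparisons. Skap2, named for its place beside the Hoxa cluster and not for its counts, had 3605 counts in P10 EV, 4016 in P10 PBS and 2205 in P2, with an adjusted p of 0.215 for P10 EV over P2 and 0.0584 for P10 PBS over P2. Cbx5, beside the Hoxc cluster, encodes a heterochromatin protein and was the neighbour of most counts, with 1382 ± 109 CPM in P10 EV, 1134 ± 125 in P10 PBS and 1020 ± 203 in P2 (SD, n = 4 each; adjusted p = 0.188 for P10 EV over P2). Hnrnpa1, an RNA-binding protein gene also beside the Hoxc cluster, came next with 150 ± 9.26 CPM in P10 EV, 125 ± 25.1 in P10 PBS and 119 ± 26.5 in P2 (adjusted p = 0.391 for P10 EV over P2).

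The partners of Hox proteins were detected in every group. TALE homeodomain proteins bind DNA together with Hox proteins, and 8 of 8 examined had reads and 0 of 8 were called in any comparison. Meis2 stood at 104 ± 19.1 CPM in P10 EV, 80.6 ± 12.9 in P10 PBS and 135 ± 30.4 in P2, and Meis1 at 71.8 ± 7.6 in P10 EV, 68.4 ± 6.98 in P10 PBS and 70.3 ± 9.71 in P2 (SD, n = 4 each). The list's median log2 difference was -0.07 in P10 EV over P2 and -0.10 in P10 PBS over P2, against -0.003 and 0 for all genes.

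Of 8 activators that act upstream of Hox genes, 5 had reads and none was called in the 3 comparisons. Those of most counts were Kmt2a, a methyltransferase that maintains Hox expression, at 277 ± 20.7 CPM in P10 EV, 227 ± 39.0 in P10 PBS and 251 ± 28.9 in P2, and Men1, its partner, at 59.7 ± 8.29 CPM in P10 EV, 60.6 ± 2.08 in P10 PBS and 58.4 ± 11.3 in P2 (SD, n = 4 each). The Cdx factors, which act on trunk Hox genes and were looked up after their values were seen, were at 0 in every library. Of 17 genes of retinoic acid synthesis, breakdown and reception, 17 had reads and 0 were called in any comparison. The receptor Rxra stood at 39.5 ± 7.19 CPM in P10 EV, 42.2 ± 7.01 in P10 PBS and 50.2 ± 8.02 in P2, and the receptor Rxrb at 23.4 ± 1.08 CPM in P10 EV, 24.2 ± 1.87 in P10 PBS and 28.1 ± 5.17 in P2 (SD, n = 4 each).

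Among 19 Polycomb genes and their opponents, 1 was called higher in P10 EV over P2, 0 in P10 PBS over P2 and 0 in P10 EV over P10 PBS. Over all genes, the shares called higher were 0.116%, 0.252% and 0% in these comparisons. Pcgf2, a subunit of Polycomb repressive complex 1, stood at 9.8 ± 2.4 CPM in P10 EV, 3.87 ± 0.603 in P10 PBS and 3.72 ± 0.876 in P2 (SD, n = 4 each). Its log2 difference was 1.4 ± 0.25 in P10 EV over P2 (SE; adjusted p = 0.0287) and 1.34 ± 0.25 in P10 EV over P10 PBS (adjusted p = 0.228). The list's median was 0.03 in P10 EV over P2 and -0.02 in P10 PBS over P2.

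Of 8 forebrain identity genes, 2 were called lower and 0 higher in both passage 10 groups against P2. The other 6 were called in neither comparison, and none of the 8 was called in P10 EV over P10 PBS. Over all genes, 0.306% were called lower in P10 EV over P2 and 0.421% in P10 PBS over P2. Emx2, which patterns the cortex and hippocampus, stood at 11 ± 1.26 CPM in P10 EV, 8.98 ± 2.03 in P10 PBS and 25 ± 2.49 in P2 (SD, n = 4 each), a log2 difference from P2 of -1.18 ± 0.183 in P10 EV (SE; adjusted p = 0.0152) and -1.48 ± 0.186 in P10 PBS (adjusted p = 0.00268). Lhx2, which maintains cortical identity, stood at 25.8 ± 2.57 CPM in P10 EV, 26.6 ± 6.05 in P10 PBS and 50.5 ± 9.24 in P2, with a log2 difference from P2 of -0.97 in P10 EV (adjusted p = 0.0341) and -0.92 in P10 PBS (adjusted p = 0.0342). The list's median log2 difference was -0.20 in P10 EV over P2 and -0.04 in P10 PBS over P2.

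Cell types outside the brain can carry Hox transcripts, and their markers were read in the same libraries. Fibroblast markers, 7 of 8 with a read and Lum at 0 throughout, summed to 58.1 to 95.5 CPM in P10 EV, 48.4 to 65.4 in P10 PBS and 56.5 to 183 in P2. Pdgfra, a receptor kinase of this list, fell in P10 PBS over P2 (adjusted p = 0.0478). Neural crest and Schwann markers, 5 of 5 with a read, summed to 7.69 to 23.3 CPM in P10 EV, 6.40 to 13.3 in P10 PBS and 9.8 to 131 in P2, and Sox10, a neural crest and glial factor, fell in P10 PBS over P2 (adjusted p = 0.0154).

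Endothelial markers, 5 of 5 with a read, lay between 2.34 and 3.35 CPM in P10 EV, 1.89 and 5.42 in P10 PBS and 2.16 and 3.66 in P2, with Cdh5 at 0 in P10 PBS. Blood and microglia markers, 5 of 6 with a read and Hba-a1 at 0 throughout, lay between 0.356 and 1.07 CPM in P10 EV, 0.653 and 1.16 in P10 PBS and 0.244 and 1.08 in P2. Embryonic stem cell markers, 4 of 6 with a read, lay between 9.43 and 11.2 CPM in P10 EV, 10.9 and 17.0 in P10 PBS and 7.05 and 20.3 in P2, with Zfp42 and Dppa5a at 0 throughout. Most of this sum was Esrrb, at 8.69 to 11.1 CPM in P10 EV, 10.73 to 16.9 in P10 PBS and 6.8 to 20.2 in P2. Nanog reached at most 0.687 CPM and Pou5f1 at most 0.164 CPM in a library, and Tdgf1 had 1 count in all. Liver markers, 8 of 8 with a read, lay between 23.3 and 72.7 CPM in P10 EV, 32.1 and 97.8 in P10 PBS and 60.4 and 192 in P2, and Trf, which encodes transferrin, fell in P10 EV over P2 (adjusted p = 0.0491). Trf was the largest part of this sum in each of the 12 libraries, at 22.3 to 36.4 CPM in P10 EV, 31.7 to 80.8 in P10 PBS and 53.6 to 149 in P2. In the 8 libraries without liver transcripts by the Alb level, Alb, Ahsg and Serpina1a had 0 to 2 counts each. No other gene of these 6 lists was called in the 3 comparisons. The part of other cell types in the Hox counts was not tested.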

How the data were processed

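Polyadenylated RNA of 12 libraries was measured with an Illumina TruSeq RNA kit, per the labels' protocols. The authors deposited raw counts per gene and FPKM, the count scaled by gene length and library total. A second deposited table repeats these values, with 0 cells differing. HISAT2 2.0.4 and StringTie 1.3.0 are named in the submitters' processing notes. Which program counted the reads, with what strand setting and on which build, is not stated in the sources used here. The 38 Hox genes described have the coordinates of GENCODE M21 (GRCm38).

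Counts were fitted in edgeR 4.0.16 (R 4.3.3) by quasi-likelihood with TMM scaling (factors 0.933 to 1.04), 1 mean per group and 9 residual degrees of freedom. The low-count filter was left out, since of the 38 it passes only Hoxa5, and does so through its higher groups; 24209 genes with a read were tested. A gene was called at a Benjamini-Hochberg adjusted p under 0.05 over all of them. CPM use TMM-adjusted totals. Intervals are 95%: from the SE for log2 folds, exact for pooled counts. The fit was tested on simulated data.

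Members and lists were chosen with earlier results of these data known. Members with at least 20 counts are described by library. Genes of a list other than cell type markers are named if called, at most 4, or otherwise the 2 of most counts. Hoxaas2, Hoxaas3, Hoxa11os, Hottip and Evx1 are named outside this rule, and other exceptions are stated where they occur. Uncalled cell type markers are named without regard to this rule. Columns were matched to samples by library name, with 0 left over. The remaining Hox gene and 1 gene of a list are not reported here; they stayed in the fit but are in no count or sum of Hox or list genes.

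Replicate numbers were taken to pair P10 EV with P10 PBS, since every deviation correlation between libraries of one number exceeded 0.1 (0.37, 0.148, 0.138 and 0.208). Against P2 they ranged from 0.0874 to 0.187 for P10 EV and from -0.0845 to 0.211 for P10 PBS. The main fit has 1 mean per group, so its results for P10 EV over P10 PBS do not use the pairing. Only the replicate block named below uses it. Alternatives were DESeq2 1.42.0 (size factors, Wald test), limma 3.58.1 (voom; trend on log2(FPKM + 1)), a minimum count of 10, the 8 libraries of a comparison alone, a replicate block and leaving out each library. Added after seeing the data were bias-adjusted deviances in edgeR, omission of the 4 liver-transcript libraries and a term for them.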

Additional observations from a re-analysis of the deposited data

Results flagged for a closer look

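In groups of 4 libraries, a value was marked when its gap to the nearest other library took up a share of the group's range above Dixon's 95% critical value. Of 14 group and gene combinations examined, 4 were marked, and chance marks about 1 in 20 for continuous values. That rate does not hold for the 3 P2 values, since a group with reads in 1 library only is always marked. Hoxa4 in P10 PBS replicate 1 stood at 1.44 CPM, against 0.640 to 0.725 CPM in the other 3 libraries. At P2, Hoxa2 stood at 0.146 CPM in replicate 2, Hoxa4 at 0.216 CPM in replicate 1 and Hoxa5 at 0.0731 CPM in replicate 2, with the other 3 libraries at 0 in each case; these values rest on 2, 3 and 1 counts.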

How the results depend on the processing

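The number of Hox genes called is small and moves with the test, whereas no alternative called a Hox gene in P10 EV over P10 PBS. For P10 EV over P2, the main fit called 1 Hox gene among 102 genes in all. The Wald test of DESeq2 called 2 among 902, limma-voom 2 among 79 and limma-trend 1, which was Hoxa2, among 63. The fit without the liver-transcript libraries called 3 among 3129, and the fit with a term for them 2 among 331. DESeq2 gave 10 of the 13 Hox genes with a read no adjusted p here. For P10 PBS over P2, the main fit called 1 Hox gene among 163 genes in all. DESeq2 called 3 among 597, limma-voom 3 among 154, limma-trend 3 among 128 and bias-adjusted deviances 2 among 190. The fit without the liver-transcript libraries called 3 among 2225, and the term for them 3 among 379. In this comparison DESeq2 gave 9 of the 13 no adjusted p. Leaving out 1 library gave 0 to 3 Hox genes for P10 EV over P2 and 1 to 3 for P10 PBS over P2. For P10 EV over P2 it gave 0 without P10 EV replicate 2 (16 genes called in all), P10 EV replicate 4 (9) or P2 replicate 4 (17). It gave 3 there without P2 replicate 1 (2459) and 2 without P2 replicate 2 (161). For P10 PBS over P2 it gave 3 without P2 replicate 1 (1070) and 2 without P2 replicate 2 (184). Hoxa5 was called in 18 of 18 alternatives for P10 PBS over P2 (adjusted p from 0.000103 to 0.034) and in 14 of 18 for P10 EV over P2 (0.000731 to 0.0778, the highest by limma-trend). With the replicate block, edgeR called 1 Hox gene among 86 genes in P10 EV over P2 and 1 among 172 in P10 PBS over P2. In P10 EV over P10 PBS it called 0, and the block changed no call of a Hox gene. Without Hoxa5 the summed level was 1.44 CPM in P10 EV and 1.98 CPM in P10 PBS. Leaving out 1 library, it ranged over all 38 genes from 2.16 to 2.46 CPM in P10 EV and from 2.74 to 3.50 in P10 PBS. In P10 EV over P10 PBS, where no gene was called, signs turned: Hoxa2 to -0.24 without the liver-transcript libraries and -0.0048 with the term, and Hoxa3 to 0.19 by limma-voom. Leaving out 1 library, Hoxa2 ranged from -0.13 to 0.25 and Hoxa3 from -0.71 to 0.26. The causes were not tested. Depth limits the P2 values: Hoxa5 had 1 count over the 4 P2 libraries, and the 6 P2 counts of Hoxa2 to Hoxa5 lay in replicates 1 and 2, so the fits without these have none or fewer.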

Other observations

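Gbx2, a homeobox gene of the anterior hindbrain that was picked after its values were seen, had 62, 56, 36 and 50 counts in P10 EV, 61, 48, 62 and 77 in P10 PBS and 14, 40, 4 and 4 in P2. Its level was 3.61 ± 0.776 CPM in P10 EV, 4.99 ± 0.814 in P10 PBS and 1.15 ± 1.23 in P2 (SD, n = 4 each). In CPM, every passage 10 library exceeded every P2 library. By edgeR the log2 difference from P2 was 1.63 ± 0.505 in P10 EV (SE; adjusted p = 0.16) and 2.09 ± 0.506 in P10 PBS (adjusted p = 0.0835), and neither passed the test.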
